A study of Mus musculus with 6 samples.

Results

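The contractile unit of heart muscle, the sarcomere, is built from proteins that are each encoded by several related genes, and hearts replace some of these isoforms as they mature. The 10 genes described here are Tnni1 and Tnni3 (slow skeletal and cardiac troponin I), Myh6 and Myh7 (alpha and beta cardiac myosin heavy chain), Myl2 and Myl3 (ventricular regulatory and essential myosin light chain), Myl7 and Myl4 (atrial regulatory and essential myosin light chain), Tnnt2 (cardiac troponin T) and Actc1 (cardiac actin). They were chosen by gene name and are 10 of the 46983 genes in the deposited table. In RNA-seq of aortic valves, 3 libraries from wild type C57BL/6J mice at postnatal day 2 (PND2) were compared with 3 from mice aged 4 months. Each library came from valves pooled from 5 to 6 mice, so its value is that of a pool, and no treatment or engineered allele was used at either age. The valves were dissected so as to carry little heart muscle, and the libraries nevertheless held sarcomere RNA at up to 6944 RPKM at PND2 and 2730 RPKM at 4 months (reads per kilobase of exon, scaled by the library total).

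Troponin I holds the thin filament in the relaxed state until calcium binds troponin C, and troponin T ties the complex to tropomyosin. The slow skeletal form of troponin I is made in the fetal and newborn heart and is then replaced by the cardiac form. In mouse ventricles the beta myosin heavy chain is the fetal form and the faster alpha chain the adult one. Myl7 and Myl4 mark atrial muscle, and Myl4 is also made in the embryonic ventricle, while Myl2 and Myl3 mark ventricular muscle. Tnnt2 carries a 30-base exon that the embryonic heart includes and the adult heart skips.

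That exon lies on the plus strand of mm10 at chr1:135843785-135843814. The GENCODE M21 transcripts Tnnt2-204 and Tnnt2-201 share the exons on either side of it and differ in whether it is present. It is shown in capitals, with 20 bases of coding sequence on each side, because its use differed between the ages.
Tnnt2-204: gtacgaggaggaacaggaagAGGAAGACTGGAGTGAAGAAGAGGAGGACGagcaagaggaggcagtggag
Tnnt2-201: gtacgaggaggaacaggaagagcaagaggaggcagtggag

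The heavy chain genes lie next to each other on chromosome 14 and are alike in sequence, which bears on how far their reads can be told apart. The first pair below comes from exon 21 of Myh7 (chr14:54985538-54985584) and exon 19 of Myh6 (chr14:54956956-54957002), both on the minus strand, and has 0 mismatches over 47 bases. The second pair comes from exon 14 of Myh7 (chr14:54989059-54989105) and exon 13 of Myh6 (chr14:54960435-54960481), and has 8 mismatches over 47 bases, shown in capitals.
Myh7 exon 21: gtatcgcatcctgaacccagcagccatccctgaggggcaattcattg
Myh6 exon 19: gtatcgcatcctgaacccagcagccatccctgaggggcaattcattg
Myh7 exon 14: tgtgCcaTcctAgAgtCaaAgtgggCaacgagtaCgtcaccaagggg
Myh6 exon 13: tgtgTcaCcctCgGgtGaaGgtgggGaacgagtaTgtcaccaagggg

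Library totals ran from 23810507 to 38994657. Reads summed over genes came to 2.31 to 2.36 times those totals, and mitochondrial genes held 5.44 to 9.60% of them. The reads were paired, and whether the totals count pairs or a read could count at more than 1 gene is not given in the sources used here. Each of the 8 valve interstitial cell markers was detected, and their summed RPKM was 4659 to 5330 at PND2 and 6341 to 7905 at 4 months. Of the 10 genes, all passed the filter of at least 0.1 RPKM in 3 libraries, with 64 reads at the lowest value and 808753 at the highest. In limma on log2(RPKM + 0.1) over 25903 genes, 6 of the 10 were lower at 4 months at an adjusted p under 0.05 and 0 were higher. Across all genes tested, 35.8% passed in either direction, 21.1% lower and 14.7% higher at 4 months. The median log2 difference, 4 months minus PND2, was -1.41 over the 10 genes and -0.14 over all genes. The libraries of the ages did not overlap for 7 of the 10 genes, against 50% of all genes.

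**Figure D1:**
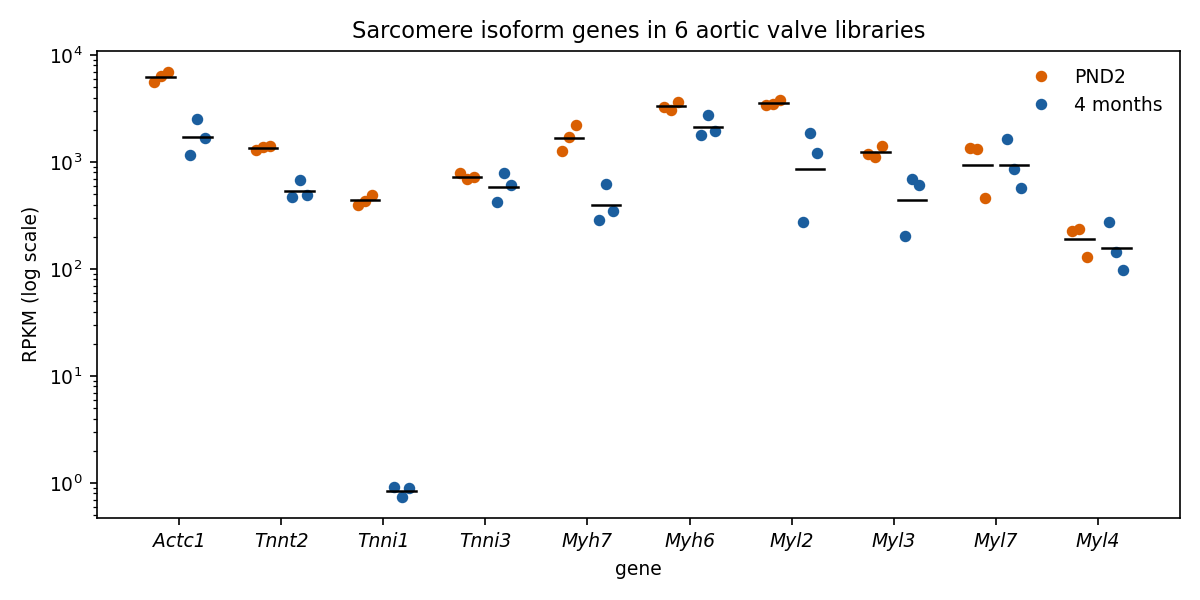
RPKM of the 10 genes (log axis) in the 3 PND2 libraries and the 3 libraries of 4 months. Each point is a library and each bar the geometric mean of an age. Tnni1 is the gene with the widest gap, and 1 library of 4 months lies far below the others of its age for Myl2 and Myl3.

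Tnni1, the slow skeletal troponin I (chromosome 1 of mm10, 135779434 to 135810989), stood at 397, 434 and 489 RPKM in PND2 replicates 1, 2 and 3. It stood at 0.915, 0.747 and 0.902 RPKM in the libraries of 4 months, on 123, 64 and 94 reads. The ages were far apart, and the libraries within an age differed by at most 1.23 times. Its log2 difference was -8.85 (SE 0.12, adjusted p = 3.14e-07, limma), and its mean RPKM was 515-fold lower at 4 months. Tnni3, the cardiac troponin I (chromosome 7, 4518305 to 4524229), stood at 782, 690 and 719 RPKM at PND2 and at 427, 789 and 604 RPKM at 4 months. Its ages overlapped, and its log2 difference was -0.31 (SE 0.22, adjusted p = 0.311, limma).

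Both forms of troponin I were abundant at PND2. By the gene rows, Tnni1 made up 33.7, 38.6 and 40.5% of the summed RPKM of the pair in the PND2 libraries and 0.214, 0.0945 and 0.149% in those of 4 months. The ratio Tnni1/Tnni3 was 0.606 ± 0.0889 (SD, n = 3) at PND2, and was lower in each library of 4 months. The difference in log2 ratio was -8.70, a 416-fold change. A gene row is divided by the length of all its annotated exons, which for Tnni1 (3600 bases) includes exons that held hardly any reads. Over 4 coding exons that have the same lengths in both genes (441 bases), Tnni1 made up 41.2, 45.9 and 48.6% at PND2 and 0.253, 0.105 and 0.248% at 4 months, a 439-fold difference in ratio. That measure was added after the data were seen. The forms were thus near to each other at PND2, and how near depends on the exons measured. An exact permutation test of 3 libraries against 3 cannot give a 2-sided p below 0.1, which is the value here (0.14 after adjustment over the 7 ratios). No 47-base window of the main transcript of either gene was found in another gene with up to 2 mismatches.

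Reads on the first exons placed the start of Tnni1 in use at PND2. The Ensembl exon at chr1:135799421-135799496, which begins at the RefSeq start, held 1240, 1496 and 1536 RPKM at PND2 and 2.82, 1.11 and 0 RPKM at 4 months. The annotated exons upstream of it, from 135779434 to 135785100, held at most 0.712 RPKM in any library. RefSeq (GRCm38.p6) lists promoters for each of the 10 genes, and the 250 bases before the start of both troponin I genes are shown, since this isoform pair had the widest gap between its members in log2 difference. Capitals mark matches to CANNTG, the E-box that basic helix-loop-helix factors bind.
Tnni1, chr1:135799171-135799420, plus strand: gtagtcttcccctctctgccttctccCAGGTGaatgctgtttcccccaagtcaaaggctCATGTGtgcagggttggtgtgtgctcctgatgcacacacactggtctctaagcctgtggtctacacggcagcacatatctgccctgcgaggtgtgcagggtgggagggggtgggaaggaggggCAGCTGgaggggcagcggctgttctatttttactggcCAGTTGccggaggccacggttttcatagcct
Tnni3, chr7:4522529-4522778, minus strand: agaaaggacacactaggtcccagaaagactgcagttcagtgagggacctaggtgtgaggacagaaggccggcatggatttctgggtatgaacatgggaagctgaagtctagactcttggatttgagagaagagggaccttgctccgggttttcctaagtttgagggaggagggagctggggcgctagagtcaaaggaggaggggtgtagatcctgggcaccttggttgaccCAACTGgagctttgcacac

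RefSeq lists 14 such promoter windows for the 10 genes, and motifs were read on both strands. E-box letters occurred for 8 of the 10 genes, in 12 of 14 windows, and in 66.2% of all 32851 RefSeq windows of this length. CATTCC, the M-CAT element of muscle genes, occurred for Myh6, Myh7, Myl3, Myl7 and Tnnt2, in 5 of 14 windows against 12.6% of all. The CArG box, bound by serum response factor, occurred for Actc1, Myl3 and Myl7, in 3 of 14 windows against 1.47% of all. AGATAA, the site read by GATA factors of the heart, occurred for Myl2 and Tnnt2 (2 of 14 windows, against 9.99% of all). TATAAA, the letters of the core promoter box, occurred for Myl2 (1 of 14 windows, against 12.4% of all). These letters lay 216 bases before the RefSeq start. The MEF2 site occurred for 0 of the 10 genes (2.92% of all windows). Both Myl2 windows, chr5:122092474-122092773 and chr5:122092939-122093238, lie upstream of its gene row. That row begins at 122100951, with an exon of 7995, 7565 and 7729 RPKM at PND2. For Myl2 the bases just before that exon were thus not searched. The M-CAT and CArG genes included Myl7, whose ages overlapped, and Myh7, which was lower at 4 months.

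Myh7, the beta heavy chain (chromosome 14, 54970688 to 54994634), stood at 1256, 1699 and 2211 RPKM at PND2 and at 290, 629 and 351 RPKM at 4 months. It was lower in each library of 4 months, with a log2 difference of -2.07 (SE 0.32, adjusted p = 0.00289, limma). Myh6, the alpha heavy chain (chromosome 14, 54941981 to 54966927), stood at 3268, 3067 and 3670 RPKM at PND2 and at 1793, 2730 and 1968 RPKM at 4 months. Its ages did not overlap, but its log2 difference of -0.64 (SE 0.21) had an adjusted p of 0.0510 in limma. Alternatives to that fit gave adjusted p-values from 0.0135 to 0.167 for Myh6, and 5 of 16 were under 0.05.

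The alpha chain was the more abundant form in each of the 6 libraries. The ratio Myh7/Myh6 from the gene values was 0.384, 0.554 and 0.603 at PND2 and 0.162, 0.230 and 0.179 at 4 months. It was lower in each library of 4 months, 2.68-fold between the means on the log scale, with an exact permutation p of 0.1. These gene values hold sequence common to both genes: 54.6% of the 47-base windows of the main Myh7 transcript and 53.1% of those of Myh6 were found in another gene with up to 2 mismatches. How reads that match more than 1 gene were counted is not given in the sources used here.

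Exons whose windows occur in no other gene gave a larger difference between the ages. Over 4 such coding exons of Myh7 (390 bases), the level was 946, 1504 and 2051 RPKM at PND2 and 31.7, 276 and 65.0 RPKM at 4 months. Over the 16 Myh7 coding exons with more than 70% of windows shared, it was 2299, 2911 and 3738 RPKM at PND2 and 706, 1347 and 833 RPKM at 4 months. The log2 differences were -4.11 and -1.66, so the fall was 17.2-fold in the exons without shared windows and 3.16-fold in those mostly shared. For Myh6, 5 coding exons without shared windows (431 bases) had a log2 difference of -0.51, and 12 mostly shared exons one of -0.74.

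In the exons without shared windows, the ratio Myh7/Myh6 was 0.337, 0.578 and 0.666 at PND2 and 0.0184, 0.110 and 0.0365 at 4 months. The beta chain thus made up 25.2 to 40.0% of the pair at PND2 and 1.80 to 9.88% at 4 months, with replicate 2 the highest of that age. The difference was 12.1-fold, with an exact permutation p of 0.1. Its size rested on single libraries, since it was 7.999-fold without replicate 1 of 4 months and 19.6-fold without replicate 2. This choice of exons was made after the data were seen, from sequence alone.

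**Figure D2:**
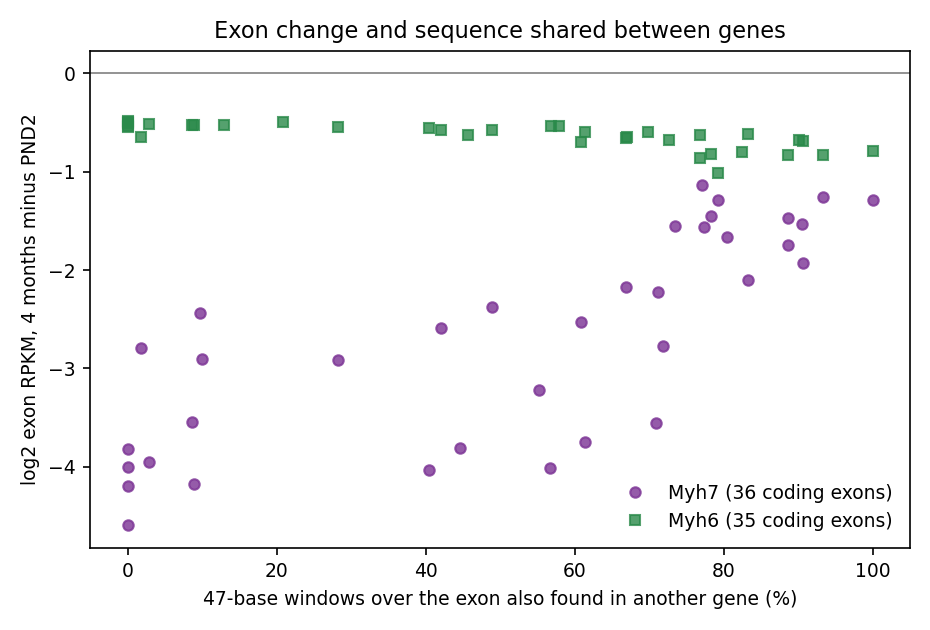
Log2 difference in exon RPKM, 4 months minus PND2, for 36 coding exons of Myh7 and 35 of Myh6, against the percent of 47-base windows over the exon that occur in another gene. Myh7 exons range from -4.59 to -1.14 and lie higher where more windows are shared, while Myh6 exons range from -1.01 to -0.49.

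Across the 36 coding exons of Myh7, Pearson's r between the percent of shared windows and the log2 difference was 0.77. For the 35 of Myh6 it was -0.74. Exons of a gene share its libraries and neighbouring exons share reads, so these are descriptions. In the test of exon use, which is exon RPKM over gene RPKM, 6 Myh7 exons passed at an adjusted p under 0.05. Of all 223000 exons tested, 0.0695% passed, 0.0457% with lower and 0.0238% with higher use at 4 months. The largest relative rise was in the 135-base exon at chr14:54971377-54971511, where 77.1% of windows were shared (log2 difference 0.93, SE 0.09, adjusted p = 0.0476, limma). The 125-base exon at chr14:54974642-54974766, with 42.1% shared, went the other way (-0.52, SE 0.04, adjusted p = 0.0336, limma). The other 4 rose by 0.54 to 0.78 on the log2 scale. Without replicate 2 of 4 months 24 Myh7 exons passed, and without each other library 0 to 2 did.

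Genes that overlap Myh7 exons moved with it. The antisense transcript Mhrt stood at 791, 1041 and 1364 RPKM at PND2 and at 247, 427 and 308 RPKM at 4 months, and the antisense Gm29015 at 3918, 4422 and 5617 RPKM and at 1419, 2468 and 1659 RPKM. Whether counting used strand is not given in the sources used here, so these levels and those of Myh7 cannot be told apart where the exons overlap. Overlaps of the other genes involved rows at far lower levels: Dnaaf3 with Tnni3 (at most 3.37 RPKM), Ccdc63 with Myl2 (at most 0.637 RPKM), Gm22000 with Myl4 (at most 0.597 RPKM) and Pth1r with Myl3 (at most 27.6 RPKM).

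The introns of both heavy chain genes carry microRNA genes, miR-208a in Myh6 and miR-208b in Myh7, and Myh7b carries miR-499. Their RefSeq mature sequences are shown with the seed (bases 2 to 8) in capitals, because the seed of both miR-208 forms is the same.
miR-208a-3p, chr14:54949072-54949093: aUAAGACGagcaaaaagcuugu
miR-208b-3p, chr14:54975710-54975731: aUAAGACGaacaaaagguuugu
miR-499-5p, chr2:155622893-155622913: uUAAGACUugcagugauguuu
The row of Mir208a held 21, 43 and 40 reads at PND2 and 4, 1 and 2 reads at 4 months (log2 difference in RPKM -3.74, SE 0.45, adjusted p = 0.00103, limma). The row of Mir208b held 87, 37 and 32 reads and 50, 38 and 69 reads, and its ages overlapped (0.26, SE 0.31, adjusted p = 0.556). Mir499 held at most 2 reads and was not tested. The host genes were in the other order, since Myh7 had the larger difference and Myh6 did not pass. Libraries made for messenger RNA do not capture mature microRNAs, so these rows count longer RNA over the hairpins.

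Myl2, the ventricular regulatory light chain (chromosome 5, 122100951 to 122113472), stood at 3395, 3476 and 3815 RPKM at PND2 and at 278, 1881 and 1203 RPKM at 4 months. It was lower in each library of 4 months (log2 difference -2.05, SE 0.63, adjusted p = 0.0403, limma), and its libraries of 4 months spanned 6.78 times. Myl3, the ventricular essential light chain (chromosome 9, 110741861 to 110769798), stood at 1192, 1123 and 1401 RPKM at PND2 and at 203, 695 and 614 RPKM at 4 months (-1.48, SE 0.44, adjusted p = 0.0348). Replicate 1 of 4 months was the lowest library for both genes, and without it their log2 differences were -1.24 and -0.92. Each gene passed in 8 of 16 alternatives to the fit. Without any 1 of the PND2 libraries neither passed (adjusted p from 0.0661 to 0.0978), nor did Myl2 without replicate 3 of 4 months (0.0673).

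The atrial light chains overlapped between the ages. Myl7 (chromosome 11, 5896637 to 5898782) stood at 1364, 1324 and 460 RPKM at PND2 and at 1639, 866 and 576 RPKM at 4 months (log2 difference -0.01, SE 0.51, adjusted p = 0.993, limma). Myl4 (chromosome 11, 104550663 to 104595753) stood at 229, 237 and 129 RPKM at PND2 and at 273, 145 and 97.6 RPKM at 4 months (-0.28, SE 0.39, adjusted p = 0.614). Both atrial genes were highest in replicate 1 of 4 months, and both were lower in PND2 replicate 3 than in the other PND2 libraries.

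The make-up of the light chains depends on the lengths used, since the gene rows span 590 bases for Myl7 but 1950 for Myl2, 2044 for Myl3 and 4637 for Myl4. Over coding exons (399 to 430 bases a gene), Myl7 made up 36.1% and Myl2 19.0% of the 4 genes in replicate 1 of 4 months. By the gene rows these shares were 68.5 and 11.6%. In the other libraries Myl2 was the most abundant of the 4 genes by either measure.

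**Figure D3:**
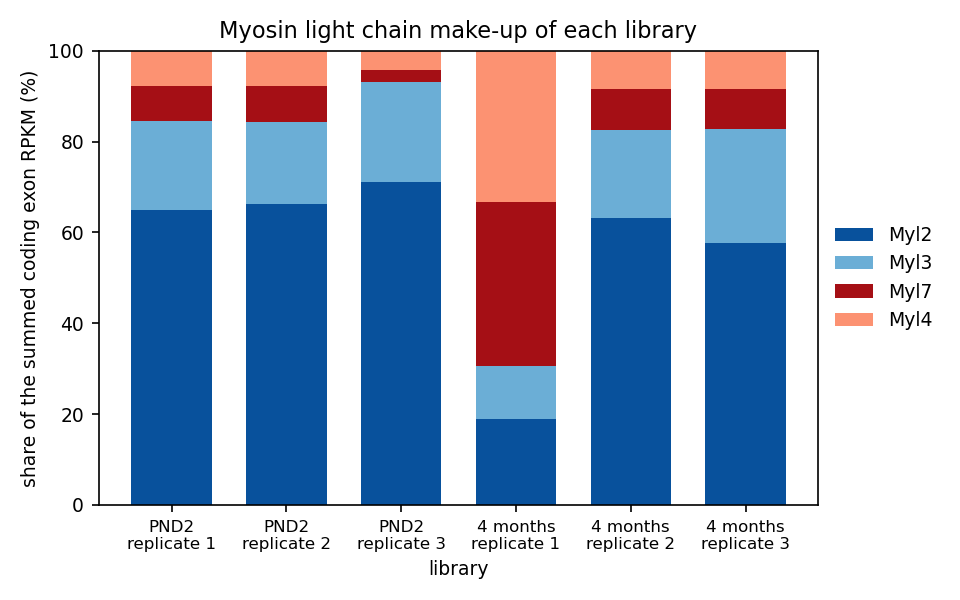
Share of each myosin light chain gene in the summed RPKM over coding exons of the 4 genes (percent, stacked bars) in each library. In 4 months replicate 1, Myl7 takes 36.1%, Myl4 33.2% and Myl2 19.0%, while in the other libraries Myl7 takes 2.67 to 9.01% and Myl2 57.7 to 71.1%.

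The ratio of atrial to ventricular light chains rested on replicate 1 of 4 months. By the gene rows, Myl7/Myl2 was 0.402, 0.381 and 0.121 at PND2 and 5.90, 0.460 and 0.479 at 4 months. The summed ratio, (Myl4+Myl7)/(Myl2+Myl3), was 0.347, 0.339 and 0.113 at PND2 and 3.98, 0.393 and 0.371 at 4 months. The libraries of 4 months were all above those of PND2 for both, with log2 differences of 2.05 and 1.82 and exact permutation p-values of 0.1. Without replicate 1 of 4 months these differences were 0.83 and 0.69. Without that library and without PND2 replicate 3 they were 0.26 and 0.15. Over 4 coding exons of equal length, Myl7/Myl2 was 0.126, 0.129 and 0.0401 at PND2 and 2.07, 0.148 and 0.165 at 4 months, so its level was lower but its log2 difference alike (2.09).

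The ratios to single genes divided in the same way. Myl4/Myl2 was 0.0674, 0.0682 and 0.0337 at PND2 and 0.983, 0.0771 and 0.0811 at 4 months, without overlap (exact permutation p = 0.1). Myl4/Myl3 and Myl7/Myl3 overlapped between the ages, with exact permutation p-values of 0.5 and 0.4. Of the 7 ratios, 5 did not overlap, and each adjusted p was 0.14 or above. The ratios have genes in common, and the share without overlap among other gene pairs was not computed.

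**Figure D4:**
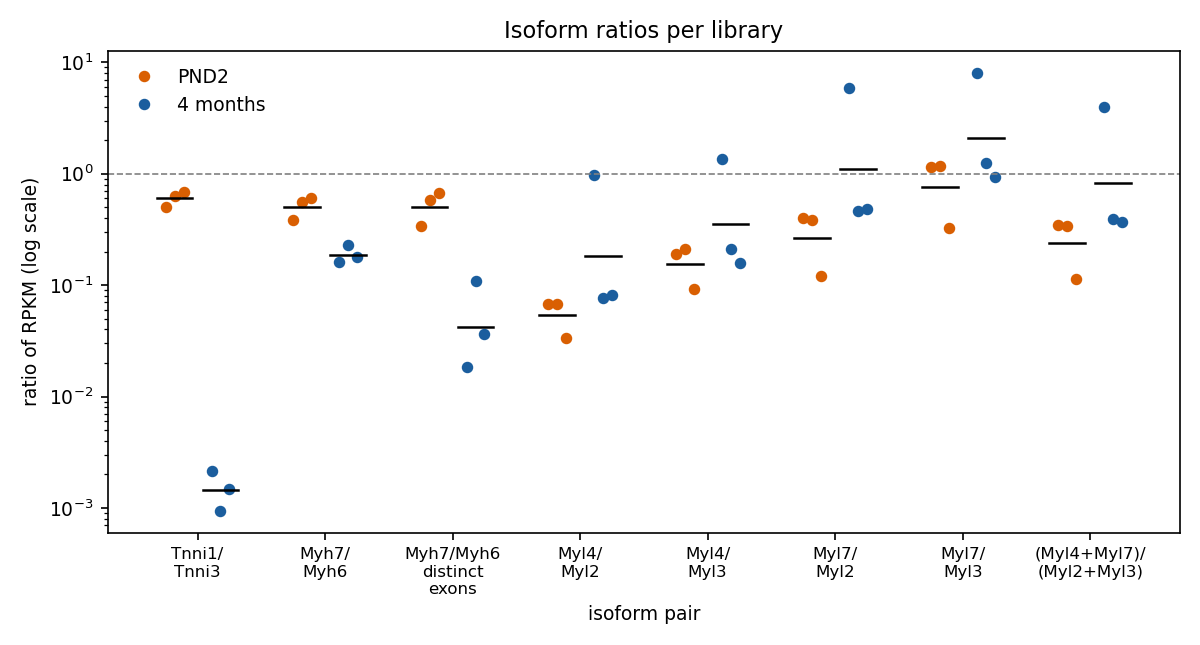
Isoform ratios of RPKM (log axis) in each library, with the geometric mean of each age as a bar and a dashed line at 1. The ratio Tnni1/Tnni3 falls from 0.606 at PND2 to under 0.01 at 4 months, the ratio Myh7/Myh6 falls further in exons without shared windows, and the light chain ratios are raised mainly in 1 library of 4 months.

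Chamber markers outside the sarcomere did not move as one with these libraries. Irx4, a ventricular transcription factor, stood at 13.2, 26.1 and 26.3 RPKM at PND2 and at 0.698, 4.75 and 2.85 RPKM at 4 months, and was lowest in replicate 1 (log2 difference -3.22, SE 0.64, adjusted p = 0.00759, limma). Sln, sarcolipin of atrial muscle, stood at 93.5, 66.6 and 49.4 RPKM at PND2 and at 248, 125 and 55.0 RPKM at 4 months. Nppa, the atrial natriuretic peptide, stood at 327, 479 and 706 RPKM at PND2 and at 874, 502 and 40.7 RPKM at 4 months. It was highest in replicate 1 of 4 months, but at PND2 it was highest in replicate 3, where Myl7 and Myl4 were lowest. At 4 months the atrial Kcnj3 (12.8, 10.8 and 4.92 RPKM) and Nr2f2 (16.2, 11.6 and 12.8 RPKM) were also highest in replicate 1. The ventricular Kcnip2 was lowest there (1.94, 9.10 and 9.30 RPKM). Other markers went another way. Hey2, a ventricular transcription factor, stood at 53.3, 33.9 and 41.9 RPKM at 4 months, highest in replicate 1. The atrial Kcna5 was lowest there (2.45, 4.67 and 3.07 RPKM), and the atrial Bmp10 was highest in replicate 2.

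Among all genes tested, 14.7% were higher and 21.1% lower at 4 months. Of the 6 atrial genes, 5 were tested, 2 were higher (Nr2f2 and Kcnj3), 1 was lower (Kcna5) and 2 did not pass. Bmp10, which was not tested, held at most 3.10 RPKM. Summed RPKM of the atrial list was 438 to 775 at PND2 and 116 to 1154 at 4 months. Of the 3 ventricular genes, Irx4 fell and Hey2 and Kcnip2 did not pass, and the summed RPKM was 64.7 to 94.7 and 47.7 to 56.0. In the 9 genes of the conduction system, 4 were lower and 1 was higher, and Hcn4, the pacemaker channel, stood at 4.62, 10.7 and 5.34 RPKM and at 2.21, 4.18 and 1.84 RPKM. The part of a differing mix of atrial and ventricular tissue in the light chain results was not tested.

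Tnnt2 (chromosome 1, 135836354 to 135852260) stood at 1295, 1388 and 1405 RPKM at PND2 and at 471, 679 and 496 RPKM at 4 months, lower in each library of 4 months, with a log2 difference of -1.33 (SE 0.16, adjusted p = 0.00116, limma). Actc1 (chromosome 2, 114047282 to 114053548) had the highest gene row RPKM of the 10 genes at PND2, at 5605, 6320 and 6944 RPKM. It stood at 1175, 2529 and 1673 RPKM at 4 months, with a log2 difference of -1.88 (SE 0.30, adjusted p = 0.00307). Both passed in 15 of 16 alternatives to the fit. For Actc1, 7.85% of windows were found in another gene with up to 2 mismatches, most often in Actg2 (3.99%) and then Acta1, and 0 matched exactly.

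The 30-base exon of Tnnt2 held 1615, 1855 and 1778 RPKM at PND2 and 76.7, 186 and 138 RPKM at 4 months, on 86 to 1889 reads. Its use relative to the whole gene was 1.25, 1.34 and 1.27 at PND2 and 0.163, 0.274 and 0.279 at 4 months. The ages were far apart, with a log2 difference of -2.47 (SE 0.20, adjusted p = 0.0287, limma) beyond that of the gene itself. The exon was used less in each library of 4 months, 5.53-fold. Its adjusted p ran from 0.00158 to 0.179 over the alternatives, and was 0.0549 to 0.152 without any 1 library other than replicate 1 of 4 months.

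Exon RPKM is inflated for short exons, since a read that touches an exon counts there. Set against the 34-base exon at chr1:135846722-135846755, which lies downstream and is present in both transcripts, the 30-base exon stood at 10.1, 11.6 and 10.7% at PND2 and 1.19, 2.02 and 2.06% at 4 months. That comparison was added after the data were seen, and the ages did not overlap in it (exact permutation p = 0.1).

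**Figure D5:**
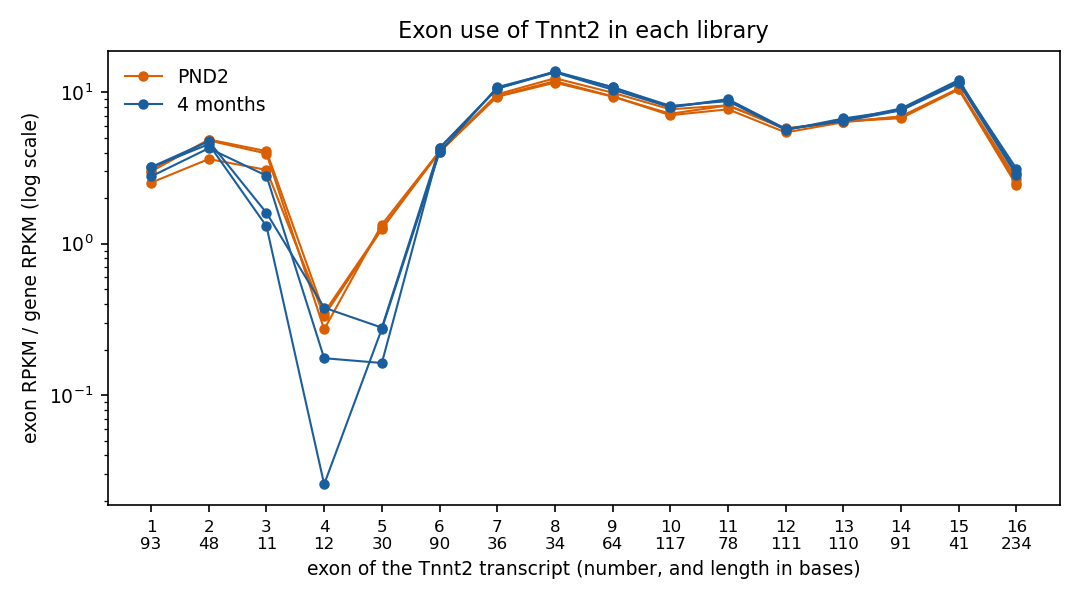
Exon RPKM over gene RPKM (log axis) for the 16 exons of a main Tnnt2 transcript, in order along the gene, with 1 line per library. The 3 PND2 lines lie at 1.25 to 1.34 at the 30-base exon 5 and the 3 lines of 4 months at 0.163 to 0.279, while the ages run close together from exon 6 on.

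The 4 other Tnnt2 exon rows that passed lie around the same place. Those of 34 and 41 bases are longer forms of the 30-base exon, the row of 2852 bases at chr1:135841901-135844752 contains it, and a row of 13 bases lies between it and the next exon. Their log2 differences ran from -2.52 to -2.33. In total 11 exon rows of the 10 genes passed, 6 in Myh7 and 5 in Tnnt2, of 232 tested. Tnni1 had 0 exons tested, since its level at 4 months was under 1 RPKM.

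Of 12 regulators of splicing, 3 were higher and 6 lower at 4 months, and 3 did not pass. Over all genes tested, 14.7% were higher and 21.1% lower. Mbnl1, a muscleblind protein that represses the 30-base exon, stood at 17.99, 15.6 and 17.2 RPKM at PND2 and at 57.3, 59.7 and 59.6 RPKM at 4 months (log2 difference 1.79, SE 0.09, adjusted p = 3.69e-05, limma). It was named after its values were seen. Other genes of the list, named likewise, went both ways. Mbnl3, also a muscleblind gene, fell by 1.57 (SE 0.35, adjusted p = 0.0124, limma), at 0.340 RPKM or less. Celf1 fell by 0.35 and Celf2 rose by 0.54 (adjusted p = 0.0209 and 0.0321, limma). Rbm24, a muscle splicing factor, fell by 1.35 (SE 0.19, adjusted p = 0.00186) and Ptbp1, the polypyrimidine tract binding protein, by 0.47 (SE 0.13, adjusted p = 0.0313). Mbnl2 and Rbfox2 did not pass (log2 differences 0.25 and -0.31). Which cells of the valve these changes came from was not tested.

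In bulk tissue, fewer muscle cells and less of an RNA per muscle cell cannot be told apart, so each gene was also set against 16 cardiomyocyte genes outside the sarcomere. The geometric mean RPKM of those genes was 113, 116 and 128 at PND2 and 76.7, 137 and 101 at 4 months, so the ages overlapped. Relative to it, Tnni1 differed by -8.78 on the log2 scale, Myh7 by -1.84, Myl2 by -1.83, Actc1 by -1.65, Myl3 by -1.25, Tnnt2 by -1.11 and Myh6 by -0.42. These 7 did not overlap between the ages, each with an exact permutation p of 0.1 (0.14 after adjustment over 10 genes). The share of all genes without overlap is known only for plain RPKM (50%), so the count of 7 has no such share beside it on this scale. The sizes depend on the reference. Relative to Tnnt2 alone, the log2 differences were -7.68 for Tnni1, -0.74 for Myh7, -0.72 for Myl2, -0.55 for Actc1, -0.15 for Myl3, 0.69 for Myh6 and 1.02 for Tnni3, and 3 of the 10 genes were lower without overlap. Tnnt2, 1 of the 7 genes above, was there set against itself and could not count.

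Tnni3 followed the reference of 16 genes closely, at 6.90, 5.93 and 5.61 times its level at PND2 and 5.57, 5.75 and 6.01 times at 4 months (log2 difference -0.09). Myl4 (-0.06) and Myl7 (0.22) overlapped. Myl2 was at 29.9, 29.9 and 29.8 times the reference at PND2, the narrowest spread of the 10 genes, and at 3.62, 13.7 and 12.0 times at 4 months.

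The reference genes did not move as one. Of the 16, 4 were higher and 7 lower at 4 months (14.7 and 21.1% of all genes tested), with a median log2 difference of -0.58. Their summed RPKM was 3578 to 4277 at PND2 and 2635 to 5903 at 4 months. Mb, myoglobin, rose by 2.16 on the log2 scale (SE 0.39, adjusted p = 0.00509, limma), from 312, 344 and 525 RPKM to 945, 2653 and 2013 RPKM. Ckm, the muscle creatine kinase, fell by 1.63 (SE 0.32, adjusted p = 0.00744). Ckmt2, named after its values were seen, rose by 4.73 (SE 0.31, adjusted p = 9.13e-05, limma). It stood at 8.80, 7.81 and 12.1 RPKM at PND2 and at 155, 350 and 295 RPKM at 4 months. Its part in the geometric mean, and in the small differences of Myh6 and Tnni3 relative to that mean, was not tested. Pln, phospholamban, and Hspb7, a small heat shock protein, did not pass (-0.40 and -0.16).

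Of 24 other cardiac sarcomere genes, 11 were lower, 3 were higher and 10 did not pass, with a median log2 difference of -0.48. Over all genes tested, 21.1% were lower and 14.7% higher. Tnnc1, the cardiac troponin C, stood at 2068, 1870 and 1961 RPKM at PND2 and at 351, 872 and 606 RPKM at 4 months (-1.78, SE 0.31, adjusted p = 0.00430, limma). Actn2, the Z-disc actinin, fell by 1.44 (SE 0.23), Csrp3, the muscle LIM protein, by 1.10 (SE 0.28) and Mybpc3, the cardiac myosin binding protein C, by 1.05 (SE 0.29). The list thus held genes on both sides. Tcap, Cmya5 and Xirp2 were the 3 that were higher, named after their values were seen.

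Of 16 skeletal sarcomere genes, 9 were lower, 1 was higher and 6 did not pass (21.1% of all genes tested were lower and 14.7% higher). Tnnt1, the slow skeletal troponin T, stood at 68.4, 64.3 and 43.3 RPKM at PND2 and at 3.36, 4.38 and 3.45 RPKM at 4 months, with a log2 difference of -3.92 (SE 0.20, adjusted p = 3.53e-05, limma). Myl1, a skeletal essential light chain, was the gene that rose (1.83, SE 0.37, adjusted p = 0.00851), while Acta1 and Mybpc2 did not pass (-0.89 and 0.70). Acta1, the skeletal actin, stood at 333, 288 and 495 RPKM at PND2 and at 125, 294 and 205 RPKM at 4 months, far below Actc1 on the same scale.

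Marker genes of other cell types in the dissected tissue also differed between the ages. Each of 10 smooth muscle genes was higher at 4 months, and their summed RPKM was 8966 to 10360 at PND2 and 19768 to 33364 at 4 months, led by Acta2, Tagln, Myl9 and Myh11. Each of 8 endothelial genes was lower (425 to 576 and 240 to 257 RPKM summed). Of 8 valve interstitial genes, 3 were higher and 5 lower. Among all genes tested, 14.7% were higher and 21.1% lower. The 5 adipocyte genes tested were higher, with sums of 0.0900 to 0.290 RPKM at PND2 and 270 to 1212 RPKM at 4 months, highest in replicate 2. RPKM is a share of all reads, and the part of these lists in the results on the sarcomere genes was not tested.

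Among genes with a mean of at least 1 RPKM, those whose log2 levels followed a sarcomere gene most closely over the 6 libraries were named by Pearson's r, as a description. Actn2 and Rbm24 were among the 3 nearest to Actc1 (r = 0.9984 and 0.9983). Strip2 was nearest to Tnnt2 (0.9989), Fh1, the fumarate hydratase of mitochondria, to Myh6 (0.9973), and Etfdh, an electron transfer enzyme of fatty acid oxidation, to Myl3 (0.9955). The nearest to Myl2 was Pank1 (0.9984), to Tnni1 the predicted gene Gm9844 (0.9997) and to Myh7 its overlapping antisense gene Gm29015 (0.9985). Tnni3, Myl4 and Myl7, whose ages overlapped, had lower best values, with Mir3061 (0.984), Gm16368 (0.973) and Rab30 (0.985).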

How the data were processed

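Mouse aortic valve RNA was sequenced as paired reads from stranded messenger RNA libraries. After trimming, the authors used TopHat2 2.1.0 for alignment to mm10 and easyRNASeq in R 3.2.2 for counts on Ensembl annotation. For each library the authors deposited RPKM per gene (46983) and per exon (448141), without the read floor of the study, since 32408 gene values stand for 1 to 10 reads. Whole reads were recovered for 100% of values (tolerance 0.001) from RPKM, length and library total (23810507 to 38994657). PND2 and 4 month libraries (3 each) were compared in R 4.3.3 by limma 3.58.1, fitted with a trend to log2(RPKM + 0.1), for genes at 0.1 RPKM or more in 3 libraries, with Benjamini-Hochberg adjustment. Libraries are pools of separate mice, and p-values measure the spread between pools. Exon use was tested likewise on log2 of exon over gene RPKM, for exons at 1 RPKM or more in 3 libraries of genes with at least 3 such exons and 1 RPKM in every library. Ratios and levels over the cardiomyocyte genes were compared by exact permutation tests, 2-sided, without a pseudocount. Windows of 47 bases from 1 GENCODE M21 transcript per gene were mapped to all transcripts with BWA 0.7.19-r1273, with up to 2 mismatches. Same-numbered libraries did not deviate together (correlations 0.04, -0.06 and -0.16), so the numbers were not taken as pairs. Steps were tested on simulated data.

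The genes and the 14 other lists were chosen with earlier results of these data known. Named were the 10 genes, the 4 genes of each list with the highest mean RPKM (or all of up to 3), the nearest genes by correlation, Tnnt2 exons of 30 bases, exons that passed and genes that overlap. Of the genes so named, 1 is not reported here. The other genes that the text names were picked with their values in view. Python 3.11.15 (pandas 2.3.3, numpy 2.4.6, matplotlib 3.10.9 and scipy 1.17.1, with version 1.17.8 of data.table in R) served for the remaining steps. Alternatives covered pseudocounts, filters, scalings, tests, a replicate block and leaving out each library.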

Additional observations from a re-analysis of the deposited data

How the results depend on the processing

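The log2 differences of Tnni1, Myh7, Myl2, Myl3, Tnnt2, Actc1 and Myh6 kept their direction in each of the 16 alternatives, including voom on recovered reads. With the unequal-variance test per gene of the study, 1 of the 10 genes passed instead of 6 (Tnni1) and 40 genes of the other lists instead of 97. Leaving out 1 library gave 4 to 7 of the 10 genes and 68 to 85 list genes. Among the lists, genes past the threshold numbered 8 in place of 14 for other cardiac sarcomere genes without replicate 3 of 4 months (9 without PND2 replicate 2 or 3), 5 in place of 10 for skeletal sarcomere genes without PND2 replicate 2 or 3, 3 in place of 9 for splicing regulators without either of these (4 and 5 without replicates 3 and 2 of 4 months), 2 in place of 5 for the conduction system without PND2 replicate 2 or replicate 3 of 4 months (3 without replicate 1 or 2 of 4 months), and 1 in place of 5 for adipocytes without any 1 library of 4 months. Median scaling moved the median of all genes from -0.14 to -0.02 and left 4 of the 10 genes past the threshold. A replicate block left 6 of the 10 genes past the threshold and no exon row of the 10 genes (0 instead of 11). Of the 3 PND2 libraries, 0 correlated best with the library of 4 months of the same number. The log2 difference of Tnni1/Tnni3 was -7.58 with a pseudocount of 1, and -8.98 to -8.39 without 1 library. That of Myh7/Myh6 was -3.60 from exons without shared windows, and -1.62 to -1.29 without 1 library. Without 1 library, Myl4/Myl2 ranged from 0.56 to 2.39, Myl4/Myl3 from 0.23 to 1.78, Myl7/Myl2 from 0.83 to 2.67, Myl7/Myl3 from 0.50 to 2.06 and the summed ratio from 0.69 to 2.3996. Without both replicate 1 of 4 months and PND2 replicate 3 these were 0.22, -0.14, 0.26, -0.10 and 0.15. With Tnnt2 alone as the reference, 3 genes in place of 7 were lower without overlap and Myh6 turned to 0.69. Tnnt2 itself, 1 of the 7, could not count there. On the plain log2 scale Tnnt2 fell by 1.33 and Myh6 by 0.64, so Myh6 rose relative to Tnnt2. Exon rows passing numbered 18 against the mean RPKM of the exons tested, and 1 to 27 without 1 library. Tests with 2 libraries at an age rest on fewer samples. At 64 to 123 reads, Tnni1 at 4 months has the largest counting error of the 10 genes. The spread between libraries is a separate limit, widest for Myl2 at 4 months (6.78 times).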

Other observations

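Genes that handle thyroid hormone, which drives the maturation of heart muscle, rose in part. Of 13 tested of 14, 6 were higher at 4 months, 0 were lower and 7 did not pass (14.7% of all genes were higher), with a median log2 difference of 0.42, and Dio1 had no read in any library. Klf9, a hormone-induced transcription factor, stood at 19.99, 9.24 and 10.6 RPKM at PND2 and at 51.4, 69.9 and 61.6 RPKM at 4 months (log2 difference 2.26, SE 0.28, adjusted p = 0.00118, limma). Thra, the alpha receptor, stood at 70.2, 102 and 97.3 RPKM and at 139, 98.7 and 115 RPKM, and its ages overlapped. Ncor1, a corepressor, did not pass (-0.14). Thrb, the beta receptor, named after its values were seen, rose by 2.08 (SE 0.15, adjusted p = 0.000152), from 6.19 to 8.22 RPKM at PND2 to 27.2 to 34.6 RPKM at 4 months. Whether heart muscle or other cells of the valve made the RNA of these genes was not tested.

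Of 12 cardiac transcription factors, 5 were lower at 4 months, 1 was higher and 6 did not pass, with a median log2 difference of -0.19. Over all genes tested, 21.1% were lower and 14.7% higher. Tbx20 stood at 155, 174 and 133 RPKM at PND2 and at 53.3, 73.2 and 84.6 RPKM at 4 months, without overlap (-1.14, SE 0.18, adjusted p = 0.00325, limma). Gata6 fell by 1.196 (SE 0.15) and Gata4 by 0.85 (SE 0.13). Mef2a did not pass (-0.19, SE 0.08), although its ages did not overlap. Valve cells also make Tbx20, Gata4 and Gata6, and their part in these values was not tested.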
